A study of Mus musculus with 33 samples.

Results

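At e13.5, 2085 regions of the mouse genome carried a peak of each of 3 homeodomain proteins, DLX1, DLX2 and DLX5. This account describes the 1035 of them that were missing from at least 1 DLX peak list of e11.5 or e16.5. They were selected on the peak lists alone. Overlapping peaks of the 3 e13.5 lists on chromosomes 1 to 19 and X were merged into 20054 regions, and the 1035 make up 5.16% of these. A region counted as present in a list when at least 1 bp of it lay under a peak of that list. The remaining 1050 three-factor regions lay under a peak in all 6 other lists and serve as the nearest comparison.

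All samples came from ganglionic eminences of CD1 mouse embryos, with the lateral, medial and caudal parts and their progenitor and mantle zones combined. DLX1, DLX2 and DLX5 were immunoprecipitated from formaldehyde-fixed wild-type chromatin at 3 ages, e11.5, e13.5, e16.5 (1 library each) with antibodies made in the submitters' laboratory. H3K27ac, H3K4me1, H3K4me3 and H3K27me3 were profiled at e13.5 by native ChIP on chromatin digested with micrococcal nuclease, in wild-type and Dlx1/2-/- embryos (1 library for each mark and genotype). RNA was sequenced from 4 wild-type and 4 Dlx1/2-/- samples at e13.5. Dlx1/2-/- denotes a knockout of both genes, and some RNA of both was still counted in it, as given below. The eminences are a mixture of dividing and differentiating cells, so fewer cells carrying a mark and less of the mark per cell cannot be told apart. No ChIP condition had a replicate: the 95% intervals below are Wilson intervals (Newcombe's for differences) that cover the counting of regions only, and no p-value is given.

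DLX proteins bind DNA through closely related homeodomains. In the ventral forebrain, Dlx1 and Dlx2 come on in progenitors and Dlx5 follows as cells leave the cycle, and together the family drives the production and migration of GABAergic neurons. H3K4me1 is the histone mark typical of enhancers, H3K27ac of active enhancers and promoters, H3K4me3 of promoters, and H3K27me3 is laid down by the Polycomb machinery at silenced developmental genes. Sites with H3K4me1 and without H3K4me3 are usually taken as distal enhancers.

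The RNA checked the labels. Dlx1 stood at 117, 121, 129 and 126 CPM (counts scaled to the library total) in wild-type replicates 1 to 4, and at 21.3, 22.6, 24.2 and 26.3 in the knockout. Dlx2 stood at 18.2, 15.3, 21.9 and 28.8 in wild type against 1.06, 1.01, 1.52 and 1.51 in the knockout. The groups did not overlap for either gene. RNA library totals ran from 14444752 to 116989915 counts. All 14 eminence and GABAergic markers averaged at least 1 CPM in wild type, with a summed level of 1088 to 1195 per library, and 651 to 751 in the knockout (13 of 14), a list that includes Dlx1 and Dlx2. All 5 pallial markers were also present (368 to 451 in wild type, 403 to 540 in the knockout). Of 3 blood genes the 2 in the table summed to 1658 to 1894 CPM in wild type and 1399 to 2044 in the knockout. The 3 vessel genes summed to 89.1 to 136 and 79.0 to 128, and the 3 microglial genes to 17.5 to 35.8 and 20.1 to 37.5. Any part of these other cells in the results below was not tested.

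The members were mostly missing from e11.5 lists, and most often from that of DLX1. Only 124 of 1035 (12.0%, interval 10.1 to 14.1%) lay under a DLX1 peak of e11.5. The DLX5 list of e11.5 held 445 of them (43.0%, 40.0 to 46.0%), and the DLX2 list of that age held 787 (76.0%, 73.3 to 78.5%). At e16.5 the lists of DLX1, DLX2 and DLX5 held 94.4%, 97.6% and 96.5%. These shares follow in part from the rule and are a description. Of all 20054 merged regions, 16.1%, 35.7% and 30.5% lay in the e11.5 lists of DLX1, DLX2 and DLX5, and 50.3%, 76.0% and 57.8% in those of e16.5.

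**Figure D1:**
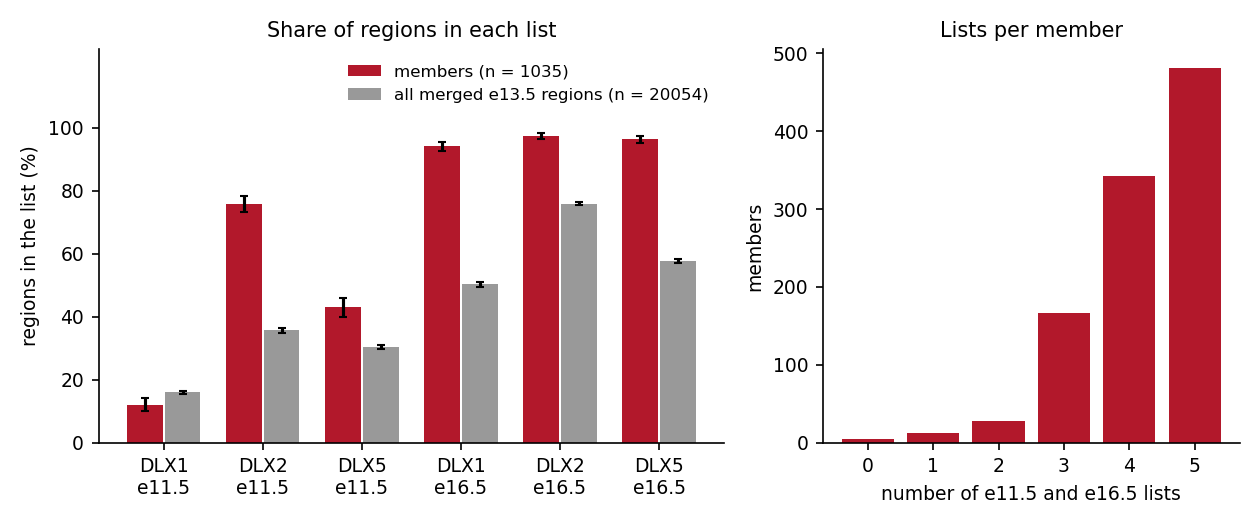
Left, share of regions (percent, bars from 0, error bars 95% Wilson intervals) in each of the 6 DLX lists of e11.5 and e16.5, for the 1035 members (red) and all 20054 merged e13.5 regions (grey). Right, number of members by how many of the 6 lists they were in. The members' bars stand between 94.4% and 97.6% in the e16.5 lists and at 12.0% in the DLX1 list of e11.5, and 481 members were in 5 lists.

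List length differed. The e11.5 lists held 4337 peaks of DLX1, 8341 of DLX2 and 11361 of DLX5, and the longest of them held fewer members than the DLX2 list. Those of e16.5 held 16817, 32610 and 27370 peaks, the same order as their shares of members. The part of list length in the shares was not tested. The 3 lists of e11.5 also lay on different chromatin: 76.0% of DLX1 peaks and 78.9% of DLX5 peaks fell under a wild-type H3K4me3 peak of e13.5, against 52.2% of DLX2 peaks. Peak lists do not tell the depth of the ChIP libraries, and its part in the shares was not tested.

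A few patterns of absence covered most members. Missing from the DLX1 list of e11.5 alone were 366 members (35.4%), and 294 (28.4%) were missing from the DLX1 and DLX5 lists of e11.5. A further 151 (14.6%) were missing from all 3 lists of e11.5 and present in all 3 of e16.5. The DLX5 list of e11.5 alone was the gap for 81 members. In all, 945 of 1035 (91.3%) were in every e16.5 list. The opposite pattern was rare, with 13 members in all 3 lists of e11.5 and missing from a list of e16.5, and no member that was in all 3 e11.5 lists was missing from all 3 of e16.5. Between DLX2 and DLX5 at e11.5, 392 members lay in the DLX2 list only and 50 in the DLX5 list only.

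By count, 481 members were in 5 of the 6 lists, 342 in 4, 167 in 3, 28 in 2, 12 in 1 and 5 in none. Those 5 were the only three-factor regions of e13.5 with no DLX peak at either other age. All were narrow, from 260 to 333 bp. The region at chr12:73194095-73194427 (mm9, as are all coordinates here) had fold enrichments over input of 9.65 for DLX1, 13.1 for DLX2 and 5.21 for DLX5. At chr2:21700161-21700466 the values were 11.8, 8.06 and 4.90. The other three were chr1:23246524-23246799 (6.51, 7.85 and 5.21), chr11:86535249-86535534 (8.18, 6.80 and 5.21) and chr4:105140769-105141028 (6.09, 6.59 and 3.98). Of the 5, only the region on chromosome 4 lay under any deposited histone peak, with an H3K4me1 fold of 2.91 in wild type and 2.49 in the knockout.

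Fold enrichment at e13.5, one of the values that chose the regions, was highest for DLX2 at most members. Each factor had its own antibody, library and e13.5 input, so the order of folds does not rank binding between factors. Median fold enrichment over input in the members was 5.88 for DLX1 (quartiles 4.83 and 7.56), 12.0 for DLX2 (8.47 and 15.4) and 4.90 for DLX5 (4.29 and 5.82). DLX2 had the highest fold of the 3 factors in 931 members (90%), DLX1 in 83 and DLX5 in 21. The regions in all 6 lists stood higher for each factor, with medians of 7.87, 19.6 and 6.12. Against every region with a peak of the factor, whatever else bound there, the members were high for DLX2 (12.0 against 5.96), slightly higher for DLX1 (5.88 against 5.25) and slightly lower for DLX5 (4.90 against 5.21). The lower quartile of DLX2 in the members, 8.47, equalled the upper quartile of all regions with a DLX2 peak.

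**Figure D2:**
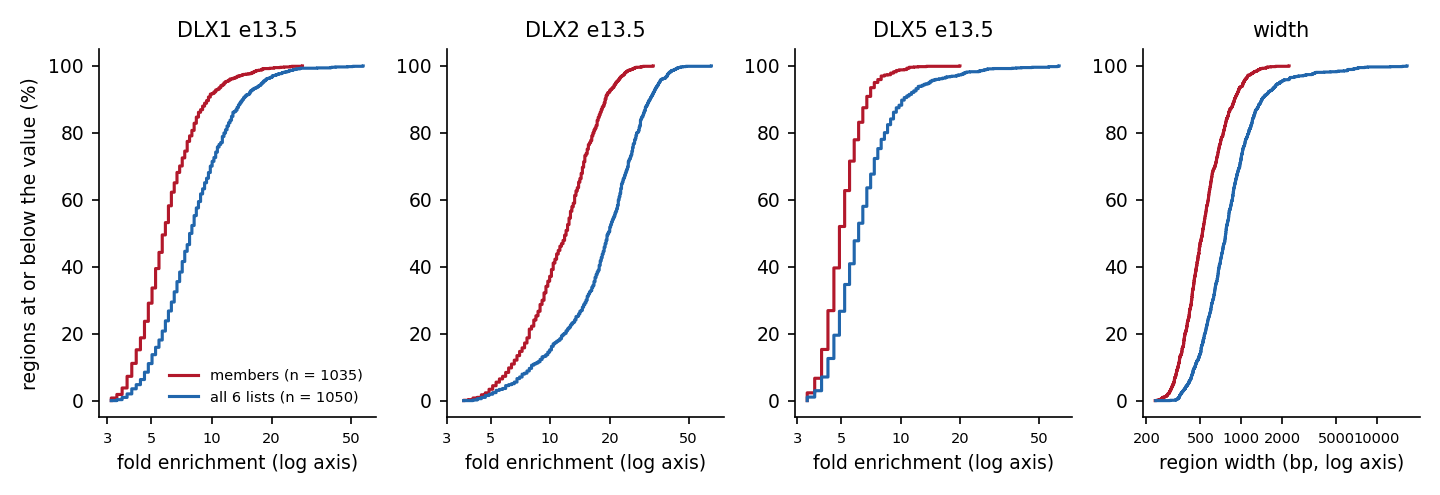
Cumulative share of regions (percent) at or below each e13.5 fold enrichment over input of DLX1, DLX2 and DLX5, and each region width in bp (all x axes logarithmic), for the 1035 members (red) and the 1050 regions in all 6 lists (blue). The red curve lies to the left in all 4 panels, with median widths of 517 and 769 bp.

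The members were compact sites in which the 3 summits nearly coincided. Median width was 517 bp (quartiles 411 and 681), and 996 members (96.2%) consisted of exactly 1 peak of each factor, against 87.7% of the regions in all 6 lists. The strongest DLX1 and DLX2 summits lay a median of 26.0 bp apart, and within 50 bp of each other in 766 members (74.0%, 71.3 to 76.6%). For DLX2 and DLX5 the median was 31.0 bp, with 68.2% within 50 bp. The regions in all 6 lists gave nearly the same spacing, with 73.1% and 69.0% within 50 bp. Spearman's rho between folds of 2 factors across the members was 0.34 for DLX1 and DLX2, 0.24 for DLX2 and DLX5, and 0.36 for DLX1 and DLX5. Across the regions in all 6 lists the same values were 0.61, 0.46 and 0.68. These are descriptions over sites that share the same libraries, and the members span a narrower range of fold.

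At the ages where a member was listed, its fold in the list is the authors' value for that peak. Median folds at e16.5 were 6.94 for DLX1, 14.8 for DLX2 and 8.08 for DLX5 among the members listed there. At e11.5 they were 4.43, 6.13 and 4.75. The regions in all 6 lists had higher medians in each list, for example 10.6 for DLX2 at e11.5 and 20 at e16.5. DLX2 kept the highest median of the 3 factors at both ages. Since each list comes from its own library, and the inputs differ between ages, folds are not compared between ages.

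The 10 members with the largest smallest-of-3 fold fell into unlike kinds. The highest, chr5:147378925-147379622, had folds of 28.5 for DLX1, 14.8 for DLX2 and 19.9 for DLX5, and was missing from the DLX1 and DLX2 lists of e11.5. Next came chr8:41503357-41503703, a 347 bp region with folds of 15.9 for DLX1 and 13.9 for DLX2 that was in no e11.5 list. Of the same kind were chr4:118341497-118341862 (23.1, 18.1 and 11 for DLX1, DLX2 and DLX5), chr12:14390249-14390623 (25.2, 10.4 and 9.49) and chr17:29959045-29959395 (18.0, 12.9 and 9.49), each in no list of e11.5 and all of e16.5. In these 5 regions DLX1 had the highest fold of the 3 factors, and none lay under a deposited H3K4me1, H3K4me3 or H3K27ac peak of either genotype.

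The other 5 of the 10 had DLX2 highest. At chr7:121002784-121003346 the folds were 12.4 for DLX1, 29.4 for DLX2 and 10.7 for DLX5, and the DLX2 fold was 13.9 at e11.5 and 38.9 at e16.5. The region chr4:77814261-77814959 had a DLX2 fold of 28.6 (7.78 at e11.5 and 43.5 at e16.5). At chr2:47689575-47690236 the folds were 15.7, 22.9 and 11.6, and it was missing from the DLX5 list of e11.5 only. The region chr3:70486829-70487601 had folds of 14.1 for DLX2 and 9.80 for DLX5, with DLX1 between them. At chr2:33614890-33615469, with folds of 10.7, 26.7 and 11, H3K4me1 reached 4.90 in wild type and 5.38 in the knockout. That was the only one of the 10 under a wild-type H3K4me1 peak whose −log10 q reached 5.

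All members were then divided by whether the DLX1 or the DLX2 fold was higher, both being values of the peaks that chose them. In 88 members (8.50%) the DLX1 fold exceeded the DLX2 fold, a subset set apart after its values were seen. Their median folds were 10.2 for DLX1, 6.38 for DLX2 and 5.51 for DLX5, and their median width was 344 bp. Of the 88, 72 (81.8%) were in no e11.5 list, against 121 of the other 947 members (12.8%). The rule used these lists, so this contrast is a description. Only 18 of the 88 (20.5%) lay under a wild-type H3K4me1 peak, against 616 of 947 (65.0%). Sites bound by DLX1 alone at e13.5 had a similar share, 16.2% of 2670. For H3K27ac the 2 subsets stood at 11.4% and 13.8%, and for H3K27me3 at 10.2% and 6.34%.

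Regions on either side of the rule were picked by their smallest e13.5 fold, so the order of these folds follows from the choice. The 3 strongest members in 5 of 6 lists were chr2:47689575-47690236, chr7:121002784-121003346 and chr2:33614890-33615469, described above, with smallest folds of 11.6, 10.7 and 10.7. The 3 weakest three-factor regions in all 6 lists were chr7:117204683-117205628, chr4:87678559-87679579 and chr7:129210570-129211130, with smallest folds of 3.15, 3.36 and 3.36. All 3 outside regions carried strong wild-type H3K4me3 (folds from 11 to 13.9), and no H3K4me3 fold at the 3 inside regions exceeded 4.05. The choice set strong members beside weak regions in all 6 lists, so the sides also differed in DLX fold. The part of DLX fold in this H3K4me3 contrast was not tested.

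Histone marks were not used by the rule directly. A region counted as marked when it lay under a broad peak whose −log10 q reached 5. In wild type, 634 of 1035 members (61.3%, 58.3 to 64.2%) lay under H3K4me1 and 294 (28.4%, 25.7 to 31.2%) under H3K4me3. H3K27ac covered 141 (13.6%) and H3K27me3 covered 69 (6.67%). At this minimum, H3K4me1 was the one mark on most members. Over all 20054 regions the shares were 58.1%, 42.5%, 25.5% and 17.7%. The members were thus near the average for H3K4me1 and below it for the other 3 marks. The wild-type lists at this minimum held 41856 H3K4me1, 23458 H3K4me3, 8883 H3K27ac and 8810 H3K27me3 peaks. The part of list length in these shares was not tested. With every deposited peak, H3K4me3 (84.3%) and H3K27ac (80.3%) also covered most members, and at a minimum of 10 no mark did.

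**Figure D3:**
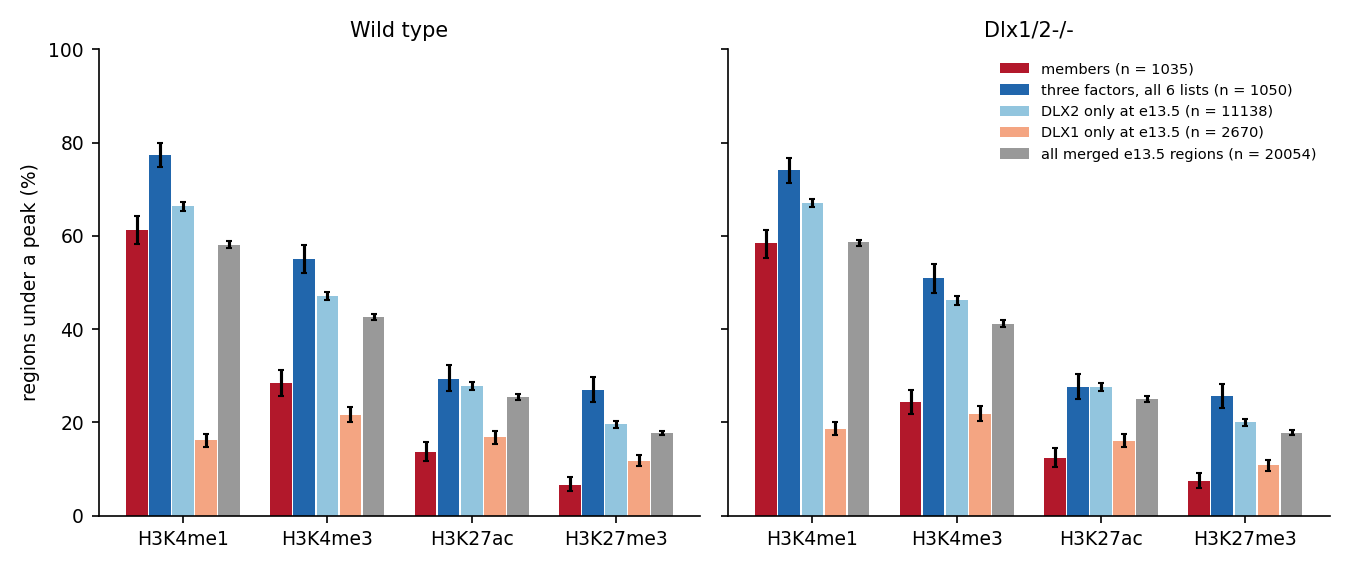
Share of regions under a peak of each histone mark (percent, −log10 q of 5 or more, error bars 95% Wilson intervals) in wild type (left) and Dlx1/2-/- (right), for the members and 4 comparison sets. The members have the lowest H3K27ac and H3K27me3 bars in both panels, with wild-type shares of 13.6% and 6.67%.

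Every mark was less frequent at the members than at the regions in all 6 lists. By the rule, the latter all lie in the DLX1 and DLX5 lists of e11.5. Of the peaks in those lists, 76.0% and 78.9% fell under wild-type H3K4me3. The part of this in the differences below was not tested. In wild type, the difference in share was -26.7 percentage points for H3K4me3 (28.4% against 55.1%, interval -30.7 to -22.6) and -20.3 for H3K27me3 (6.67% against 27.0%, -23.4 to -17.2). H3K4me1 differed by -16.1 points (-19.9 to -12.1) and H3K27ac by -15.8 (-19.2 to -12.3). With only the DLX2 summit position counted, an alternative chosen after seeing the data, the differences were -26.7, -18.5, -14.7 and -15.8 points. With every deposited peak counted, whatever its q, the H3K4me1 difference shrank to -1.25 points (92.5% against 93.7%, interval -3.46 to 0.937).

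Shares were also compared within classes of DLX enrichment. The members were divided in 3 classes by the smallest of the 3 folds, at 4.29 and 5.21, and the regions in all 6 lists at the same values. In the low class, 32.9% of 374 members and 68.8% of 170 regions in all lists lay under wild-type H3K4me3. The middle class gave 30.6% of 372 and 56.6% of 242, and the high class 19.7% of 289 and 50.9% of 638. H3K4me1 in the high class stood at 56.1% and 79.0%. These classes match the smallest fold only: the DLX2 fold was not matched, and the high class has no upper limit. Among members, marks were rarer in the high class than in the low class: H3K27ac stood at 17.9% (14.4 to 22.1%) in the low class and 6.57% (4.25 to 10%) in the high one, and H3K4me1 at 65.5% and 56.1%.

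The members lay farther from H3K4me3 than the merged regions as a whole. Their median distance to the nearest wild-type H3K4me3 peak was 31.3 kb, against 8.88 kb over all merged regions, and 0 for the regions in all 6 lists. More than 10 kb away were 658 members (63.6%, 60.6 to 66.5%) and 407 of the 1050 regions in all lists (38.8%, 35.9 to 41.7%). Over all merged regions the share was 49.1%, and for the sites bound by DLX1 alone it was 67.8%, with a median distance of 38.7 kb. Without gene models of this build, H3K4me3 is the only stand-in for promoters, and genes are not named.

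Combinations of marks were counted at the same −log10 q minimum of 5, where the lists of the 4 marks differ in length. H3K4me1 without any of the other 3 marks was found at 363 members (35.1%, 32.2 to 38%). The regions in all 6 lists stood at 27.7% (25.1 to 30.5%) and all merged regions at 25%. None of the 4 marks was called at 349 members (33.7%, 30.9 to 36.7%), against 29.4% of all merged regions, 10.0% of the regions in all 6 lists and 71.7% of the sites bound by DLX1 alone. H3K4me3 together with H3K27me3, the pairing known as bivalent, was found at 5.31% of members and 21.8% of regions in all lists. Of the 141 members with H3K27ac, 126 (89.4%) also had H3K4me3, beside 92.6% in the regions in all 6 lists and 95.5% over all merged regions. A set of 15 members (1.45%) had H3K4me1 and H3K27ac without H3K4me3. The same combination made up 2.00% of the regions in all 6 lists and 1.08% of all merged regions.

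Marks were more frequent at members in more of the other lists. H3K4me1 in wild type covered 6 of 45 members in 0 to 2 lists (13.3%, 6.26 to 26.2%), 38.9% of those in 3 lists, 58.2% in 4 and 75.7% in 5 (71.6 to 79.3%). The last value was close to the 77.3% (74.7 to 79.8%) of regions in all 6 lists, and these intervals overlap. H3K4me3 went through 6.67%, 11.4%, 24.3% and 39.3% to 55.1%, so that members in 5 lists still stood below the regions in 6. H3K27me3 stayed at 4.44%, 4.19%, 5.26% and 8.73% up to 5 lists and was 27.0% at 6.

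**Figure D4:**
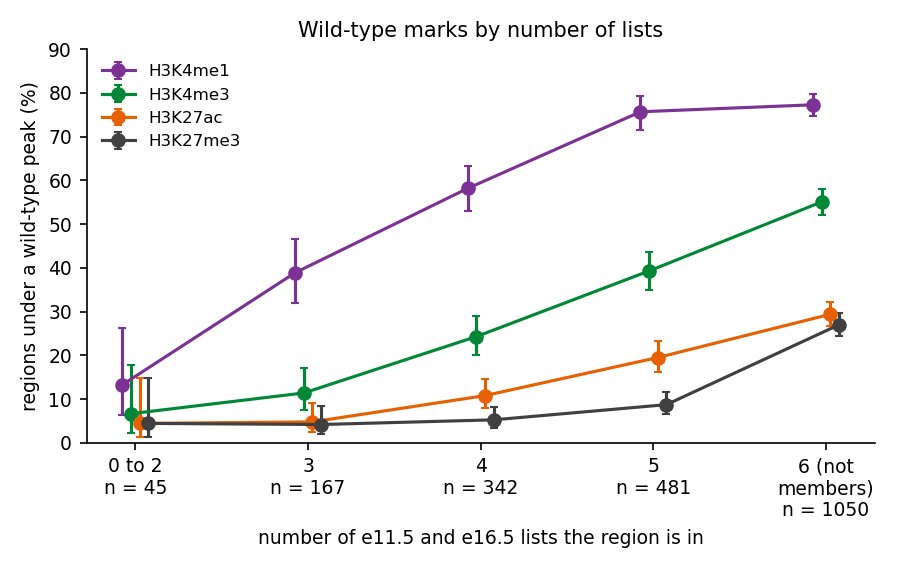
Share of three-factor regions under a wild-type peak of each mark (percent, error bars 95% Wilson intervals) by the number of the 6 lists of e11.5 and e16.5 they were in, the last point being the 1050 regions that are not members. H3K4me1 climbs from 13.3% to 75.7% and then levels, while H3K27me3 reaches at most 8.73% before the last point.

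H3K4me3 differed with which list was missing. Members missing from the DLX1 list of e11.5 alone had H3K4me3 at 39.1% (34.2 to 44.2%) and H3K4me1 at 76.0%. Those missing from the DLX5 list alone had 24.7% and 79.0%. Where both lists were missing the shares were 19% and 57.5%. The 151 members in no e11.5 list and all of e16.5 had 11.9% (7.67 to 18.1%) and 37.1% (29.8 to 45.0%), and H3K27ac at 7 of 151. Members absent from a list of e16.5, 90 in number, had H3K4me1 at 43.3% and H3K27ac at 14.4%. The high H3K4me3 share of the DLX1 and DLX5 lists of e11.5, given above, moves with these values and its part was not tested.

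In the Dlx1/2-/- eminences, the order of the marks at the members was the same. H3K4me1 covered 58.4% (55.3 to 61.3%), H3K4me3 24.3% (21.7 to 27.0%), H3K27ac 12.4% and H3K27me3 7.34%. Each interval overlaps that of wild type, but both were taken over the same regions, so this overlap does not measure the difference. Counts region by region follow. Most marked members were marked in both genotypes: 550 of 634 for H3K4me1, 237 of 294 for H3K4me3, 120 of 141 for H3K27ac and 63 of 69 for H3K27me3.

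Peaks called in wild type and not in the knockout were more frequent than over all merged regions for the 2 methyl marks of H3K4. H3K4me3 was absent in the knockout by this count at 57 of 294 members (19.4%, 15.3 to 24.3%), beside a background of 7.22% over all regions with a wild-type peak. H3K4me1 was absent at 84 of 634 (13.2%, 10.8 to 16.1%), beside 8.29%. For H3K27ac the count was 21 of 141 (14.9%, 9.95 to 21.7%) beside 10.5%, and for H3K27me3 it was 6 of 69 (8.70%) beside 15.5%. The regions in all 6 lists gave 12.3% (9.84 to 15.2%) for H3K4me3, 7.88% for H3K4me1, 16.2% for H3K27ac and 15.5% for H3K27me3. In the opposite direction, a peak in the knockout and not in wild type was found at 54 members for H3K4me1 (5.22%, background 5.30%), 14 for H3K4me3 (1.35%, background 1.76%), 8 for H3K27ac (0.773%, background 2.23%) and 13 for H3K27me3 (1.26%, background 2.80%). Peak strength moved with these counts: the median wild-type −log10 q of H3K4me3 was 11.7 at marked members, 6.33 at those without a knockout peak, and 28.0 over all marked regions. Its part in these counts was not tested.

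The sizes of the changes were small. Where a member lay under a deposited peak in both genotypes, the median log2 ratio of fold enrichment, knockout over wild type, was -0.12 for H3K4me3 (752 members, fold 3.54 to 3.09), -0.10 for H3K27ac (780), -0.02 for H3K4me1 (914) and -0.10 for H3K27me3 (217). Over all merged regions the medians were 0.03, -0.08, 0.00 and -0.08. The H3K4me3 ratio was below 0 at 65.2% of members and 45.3% of all regions. Where −log10 q reached 5 in both genotypes, the H3K4me3 median was 0.06 over 237 members and 0.11 over all regions. That requirement leaves out the 57 members whose wild-type peak reached it and whose knockout peak did not.

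Changes past 2-fold were few. For H3K4me3, 11 members were lower and 1 higher by more than 2-fold, with backgrounds of 0.523% and 0.238% of the regions compared. H3K4me1 had 2 down and 1 up (backgrounds 0.185% and 0.0447%), H3K27me3 1 down and 2 up (0.445% and 0.350%), and H3K27ac none in either direction (0.191% and 0.0923%). Counts of this size are near the background for every mark but H3K4me3.

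The authors' deposited lists of regions that differ between genotypes gave a finer view, since those regions are short (median 533 bp for H3K4me1 lower in the knockout). In these lists, regions lower in the knockout are the ones the authors filed under the first condition. That reading was checked on the peaks: 90.7% of the H3K4me1 regions so filed, and 80.8% to 97.6% for the other marks, had the stronger peak in wild type. By these lists 120 members (11.6%) lay in a region lower in the knockout for at least 1 mark, beside a background of 4.96%, and 12 (1.16%) in one that was higher, beside 1.79%. Of the regions in all 6 lists, 13.3% and 2.76% were so placed.

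H3K4me1 was the mark most often listed as lower, at the members and over all merged regions. The authors' lists of regions lower in the knockout differ in length. They hold 2936 regions for H3K4me1, 700 for H3K27ac, 360 for H3K4me3 and 5116 for H3K27me3. The part of list length in the listed shares was not tested. The authors' deposited list placed 84 members (8.12%, 6.60 to 9.94%) in H3K4me1 regions lower in the knockout, beside a background of 3.37% of all merged regions and 5.62% of the regions in all 6 lists. The difference from the latter was 2.50 percentage points (0.323 to 4.70). No member lay in an H3K4me1 region higher in the knockout, which allows a share of up to 0.290%, beside a background of 0.145%. With 500 bp added on each side, members stood at 12.7% and the regions in all 6 lists at 10.9%. At the DLX2 summit alone these were 4.54% and 2.67%. At 78 of the 84 the strongest H3K4me1 peak had the higher fold in wild type, and 11 had no peak in the knockout. By the labels, a separate input was named for wild-type H3K4me1 and none for knockout H3K4me1. The part of this input in these counts was not tested.

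H3K27ac was listed as lower at 28 members (2.71%, 1.88 to 3.88%), beside 1.12% of all merged regions and 6.48% of those in all 6 lists, and as higher at 4 (background 0.259%). The difference from the regions in all lists was -3.77 points (-5.62 to -1.99), and -2.35 (-4.09 to -0.670) with the 2 windows given below left out. H3K4me3 was listed as lower at 26 (2.51%, background 0.987%) and as higher at 7 (0.676%, background 1.19%), against 4.95% lower in the regions in all 6 lists. H3K27me3 was listed as lower at no member, which allows up to 0.290%, beside a background of 0.404% and 2.10% of the regions in all 6 lists. It was listed as higher at 1 (background 0.264%). In wild type, each mark was already rarer at the members than at the regions in all 6 lists. H3K27me3 covered 6.67% against 27.0%, and H3K27ac 13.6% against 29.4%. The part of this in the listed shares was not tested.

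Close neighbours counted separately raise some shares of the regions in all 6 lists, and the intervals treat them as independent. Of the 22 such regions listed as lower for H3K27me3, 10 lay between chr2:77713257 and 77898115 and 4 in chr2:71365469-71376809. The first stretch also held 14 of the 68 listed for H3K27ac, and the second held 3. The second stretch held the highest scores of the authors' lower lists for H3K27ac (187), H3K4me1 (117) and H3K4me3 (262). Some of its regions had no knockout peak of any of the 4 marks. Dlx1/2-/- denotes a knockout of both genes, and any part of DNA missing from the knockout in these values was not tested. No member in the windows of 1 Mb around the stretches was listed as lower for any mark. The member at chr2:71283621-71284112, in the window of the second stretch, was listed as higher for H3K4me3 (authors' deposited score 4.23). With both windows left out, a choice made after seeing the data, the regions in all 6 lists stood at 0.794% for H3K27me3 and 5.06% for H3K27ac. The difference from the members became -0.794 points (-1.56 to -0.255) for H3K27me3. It was 3.48 points (1.36 to 5.63) for H3K4me1 and -2.24 (-3.94 to -0.617) for H3K4me3.

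Listed H3K4me1 losses were most frequent where DLX enrichment was highest. Of the low class of members by smallest fold, 4.55% (2.86 to 7.16%) lay in an H3K4me1 region listed as lower, of the middle class 8.87% (6.39 to 12.2%), and of the high class 11.8% (8.54 to 16%). The regions in all 6 lists gave 2.35%, 3.72% and 7.21%. The difference was 5.15 points (1.1 to 8.91) in the middle class, 4.55 (0.611 to 9.13) in the high and 2.19 (-1.73 to 5.17) in the low. Of the 3 classes of members, the high one had the fewest H3K4me1 peaks in wild type and the most listed losses. Members missing from the DLX1 and DLX5 lists of e11.5 had 33 of 294 listed (11.2%, 8.10 to 15.3%), those in no e11.5 list and all of e16.5 16 of 151 (10.6%), and those missing from the DLX1 list alone 28 of 366 (7.65%, 5.35 to 10.8%). These intervals overlap.

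**Figure D5:**
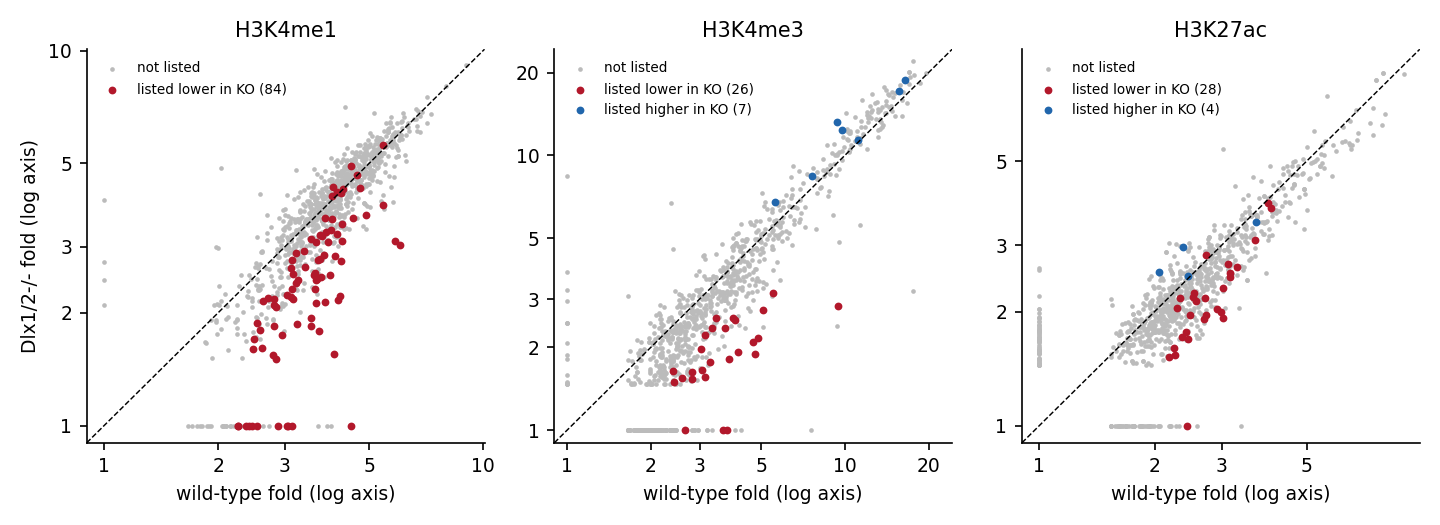
Fold enrichment over input of the strongest peak at each member in wild type (x) and Dlx1/2-/- (y), for H3K4me1, H3K4me3 and H3K27ac (logarithmic axes, dashed line at equality, a value of 1 standing for no deposited peak). Red points are members in the authors' regions lower in the knockout (84, 26 and 28), blue points those in regions higher (0, 7 and 4), and most red points lie below the line.

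Some members were listed as lower for several marks. H3K27ac and H3K4me1 were both listed as lower at 7 members, H3K27ac and H3K4me3 at 10, H3K4me1 and H3K4me3 at 5, and all 3 marks at 4. At least 1 of the other 2 marks was also listed at 8 of the 84 H3K4me1 members (9.52%), 13 of the 28 for H3K27ac (46.4%) and 11 of the 26 for H3K4me3 (42.3%). Over all merged regions the same shares were 13.8%, 44.2% and 52.5%, and over the regions in all 6 lists 52.5%, 44.1% and 61.5%.

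The region at chr11:87845244-87845809 was among the top 3 for each of these marks. It had e13.5 folds of 7.98 for DLX1, 17.1 for DLX2 and 7.66 for DLX5, and was missing from the DLX1 list of e11.5 only. In wild type, fold enrichment was 4.04 for H3K4me1, 3.64 for H3K4me3 and 3.29 for H3K27ac. In the knockout it was 1.55 for H3K4me1 and 2.62 for H3K27ac, with no H3K4me3 peak. The scores in the authors' deposited lists, log10 likelihood ratios between genotypes, were 29.8 for H3K4me3, 19 for H3K4me1 and 7.61 for H3K27ac.

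The other 2 top regions for H3K4me1 had no H3K4me1 peak in the knockout. At chr16:10307417-10307933, with e13.5 folds of 6.93, 18.7 and 5.82, H3K4me1 stood at 4.47 in wild type and had no peak in the knockout (score 21.8 in the authors' deposited list). H3K27ac there went from 2.27 to 1.53. At chr17:71719152-71719388, a 237 bp region in 2 of the 6 lists, H3K4me1 stood at 3.12 with no knockout peak (authors' deposited score 17.9).

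For H3K4me3, chr17:3481587-3482450 followed, with folds of 4.74 in wild type and 1.89 in the knockout (authors' deposited score 23.1), while H3K4me1 there was 3.96 and 4.50. At chr9:21235157-21235593 H3K4me3 went from 4.01 to 2.53 (authors' deposited score 17.5) and H3K27ac from 3.03 to 1.92, with H3K4me1 at 4.69 and 4.95. At both regions H3K4me3 and H3K27ac were lower in the knockout and H3K4me1 was not. DLX2 was the highest of the 3 factors at each, with folds of 23.3 and 19.2.

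The highest scores for H3K27ac were at chr2:158671961-158672312, where the fold was 2.52 in wild type and 2.18 in the knockout (authors' deposited score 9.43), and chr5:32747496-32748161, at 2.45 and 1.70 (8.59). Both were missing from the DLX1 and DLX5 lists of e11.5 and present in the other 4. At the second, H3K4me1 also went from 4.07 to 2.84. Neither reached a −log10 q of 5 for H3K27ac in wild type.

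Regions listed as higher in the knockout carried low scores. For H3K4me3 the highest was chr11:100943644-100944011, where the knockout fold was 18.8 and above that of wild type (authors' deposited score 4.59). That region was also under strong H3K27me3, at 10.9 in wild type and 10.5 in the knockout. Next came chr2:71283621-71284112 (H3K4me3 5.60 and 6.78, authors' deposited score 4.23) and chr8:12324509-12325466 (7.61 and 8.37, score 3.89). For H3K27ac they were chr13:52657339-52657999 (2.45 and 2.48, score 4.54), chr10:86909336-86910989 (3.68 and 3.44, score 3.83) and chr1:96399918-96401036 (2.38 and 2.97, score 3.75). At the one on chromosome 10 the fold of the whole peak did not follow the list. The single H3K27me3 region was chr14:66042790-66043164, at 4.20 and 4.68 (authors' deposited score 3.97).

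Members were spread over all chromosomes, from 102 on chromosome 2 (9.86% of members, 8.55% of all merged regions) to 5 on the X (0.483% against 1.48%). Only 95 members (9.18%) had another member within 50 kb, in 45 runs. The longest run held 5 members over 114 kb at chr2:44900153-45014521, with DLX2 folds of 11.6, 5.96, 5.12, 14.3 and 16.6 along it. The 2 weaker ones in DLX2, at chr2:44948198-44948732 and chr2:44952758-44953235, were in no list of e11.5, and the other 3 were missing from the DLX1 list of e11.5 only. Runs of 3 members lay at chr12:54690258-54748726 (58.5 kb) and chr1:159867907-159900171 (32.3 kb). In both, every member was missing from the DLX1 list of e11.5, and DLX2 was the highest factor, with folds from 13.1 to 18.3. A region in all 6 lists lay within 50 kb of 129 members (12.5%, 10.6 to 14.6%), against 10.1% (9.69 to 10.6%) of the merged regions bound by 1 or 2 factors.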

How the data were processed

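Per the submitters' processing notes, ChIP reads were trimmed with Trim Galore and mapped to mm9 with BWA 0.7.16a, peaks were called with MACS2, and RNA reads were mapped with STAR 2.4.2a. Per the file headers and names, the authors deposited narrow DLX peaks and broad histone peaks against input, each with a fold enrichment (ratio) over input and −log10 p and q values, and lists of regions that differ between genotypes, each with a score (log10 likelihood ratio). Peak intervals repeated for several summits were counted once, and the strongest value over a region was used. The authors' RNA table holds raw counts per gene, which were scaled here to the library total (edgeR 4.0.16 gave the TMM alternative only). The protocol text names e13.5 for the dissections, and ages were taken from each sample's label. Merging and overlap (Python 3.11.15, at least 1 bp) were tested on simulated intervals against bedtools 2.31.1. Alternatives changed the merge distance, the q minimum, the overlap, the score minimum and the lists of the rule.

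The members, the lists of markers and the comparisons were chosen with earlier results of these data known. Named regions are the 10 members with the largest smallest-of-3 fold, the 5 members in no other list, the 3 top scores for each mark and direction, 3 regions on each side of the rule and the 3 longest runs with gaps under 50 kb. The subset of members with DLX1 above DLX2 was chosen after seeing the data. No genome of build mm9 was used here, so no sequences, motifs or nearest genes are given. Depth of the ChIP libraries is unknown, and intervals cover counting error only.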

Additional observations from a re-analysis of the deposited data

How the results depend on the processing

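No paired analysis was possible because no result here comes from a test between groups of replicates. Motif shares and RNA of nearest genes were not run, since they need an mm9 genome or annotation. The number of members, 1035, became 79 with e13.5 peaks at a −log10 q of at least 10, 1674 when a peak had to cover at least 0.5 of the region, and 669 without the DLX1 e11.5 list. It ranged from 954 to 1035 under the other alternatives. With that coverage, 4.93%, 62.2% and 25.2% of members were in the e11.5 lists of DLX1, DLX2 and DLX5, and 82.5% and 90.5% in the e16.5 lists of DLX1 and DLX5. With peaks at a −log10 q of at least 10 the shares were 0.773%, 45.9% and 3.67% at e11.5, and 73.7%, 93.8% and 84.9% at e16.5. With every deposited histone peak, members under H3K27ac, H3K4me1, H3K4me3 and H3K27me3 were 80.3%, 92.5%, 84.3% and 23.8% in wild type and 80.9%, 88.7%, 74.2% and 34.4% in the knockout. At a −log10 q of at least 10 they were 4.44%, 17.6%, 16.2% and 2.32%, and 4.83%, 22.2%, 14.9% and 2.13%. At that minimum the order of the genotypes was the reverse of the main setting for H3K27ac, H3K4me1 and H3K27me3. With every deposited peak it was reversed for H3K27ac only. The wild-type difference from the regions in all 6 lists kept its sign throughout. It was -1.25 (H3K4me1), -13.5 (H3K4me3) and -27.6 (H3K27me3) points with every deposited peak, and -6.70 (H3K27ac), -20.1 (H3K4me3) and -10.5 (H3K27me3) at a −log10 q of at least 10. Members in the authors' regions lower in the knockout at a score of at least 6 were 0.870% for H3K27ac, 4.54% for H3K4me1 and 1.06% for H3K4me3, and 0% in the regions higher for H3K27ac, H3K4me3 and H3K27me3. With 500 bp added on each side they were 4.64% (H3K27ac lower), 12.7% (H3K4me1 lower) and 0.676% (H3K4me1 higher). At the DLX2 summit alone, an alternative chosen after seeing the data, they were 0.773% (H3K27ac lower), 0% (H3K27ac higher), 4.54% (H3K4me1 lower) and 1.64% (H3K4me3 lower). With the 2 windows on chromosome 2 left out, chosen after seeing the data, the difference from the regions in all 6 lists in listed H3K27me3 losses was -0.794 points. The median log2 ratio changed sign for H3K4me1 (0.03) and H3K4me3 (0.06) with a −log10 q of at least 5 in both genotypes, where fewer members were compared, and was -0.07 for H3K27ac. Less the median over all regions it was -0.02 for H3K27ac, -0.15 for H3K4me3 and -0.03 for H3K27me3. Dlx1 in the knockout was 18.4% to 19.8% of wild type, and Dlx2 5.55% to 6.91%, with each replicate left out in turn. The cause of these shifts was not tested.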
